A study of Mus musculus with 8 samples.

Results

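c-Jun binding was examined at 10 immediate early and stress response genes, Egr1, Ier2, Ier3, Klf6, Dusp1, Btg2, Zfp36, Myc, Gadd45a and Gadd45b, among 21000 protein-coding genes with a curated transcription start site (TSS). Each gene has a single curated TSS, and the c-Jun peaks whose centre lay within 50 kb of it were assigned to the gene. The rule took 65 of the 16166 peaks in EpiSCs and 27 of the 6032 peaks in kEpiSCs, and no peak was assigned to more than 1 of the genes. At the edge of the rule, the outermost assigned peak was an EpiSC peak of Myc (47145 bp, fold enrichment 4.11), and the next beyond the limit was an EpiSC peak of Gadd45a (51936 bp, fold enrichment 5.47).

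The data are c-Jun chromatin immunoprecipitation followed by sequencing (ChIP-seq) of mouse epiblast stem cells (EpiSCs), a primed pluripotent line labelled as from the strain cross CBA/CaJ X C57BL/6J, and of kEpiSCs, for which the labels give no strain. The study's methods instead give a cross of 129 females to OG2 males, which carry the Oct4-GFP reporter, for the EpiSCs. kEpiSCs carry this reporter and a Klf4 transgene driven by the CAG promoter, with drug selection, and both lines were kept in a feeder-free medium with Activin A and bFGF. For each line there were 2 ChIP libraries and 2 input libraries but 1 peak list, which may rest on the first ChIP library alone, so no spread between replicates can be given and nothing here is a test between the lines. The antibody field of the labels names c-Jun, whereas their protocol text names H3K27ac. Levels of mRNA were not analysed here. In the lists, a fold enrichment is the ChIP signal over the local background at the highest point (summit) of a peak, with 1 added to each. The number of reads behind it was solved from the fold and the p-value. It had a median of 10 reads per peak in EpiSCs (5 to 159) and 14 in kEpiSCs (7 to 67), so most peaks rest on few reads, and intervals cover counting error only.

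Immediate early genes are transcribed within minutes of a growth factor, serum or stress signal, without new protein synthesis. Their products are transcription factors, such as Egr1, Klf6 and Myc, and proteins that limit the response, such as the MAP kinase phosphatase Dusp1 and the mRNA decay factor Zfp36. c-Jun is itself the product of an immediate early gene. As a dimer with Fos family proteins it binds the AP-1 site, TGACTCA or TGAGTCA, and as a dimer with ATF proteins it also binds the cAMP response element (CRE), TGACGTCA.

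Peaks covered the promoters of Dusp1, Btg2 and Klf6 in EpiSCs, and these promoters are shown first because a full CRE was present in those of Dusp1 and Btg2. The sequences are RefSeq's, from 250 bases before to 50 bases after the TSS on GRCm38.p6, the assembly of mm10, and run 5′ to 3′ along the gene. Capitals mark the CRE of Dusp1, 136 to 143 bp upstream of the TSS, and that of Btg2, 159 to 166 bp upstream. In the Klf6 promoter they mark the closest match to a CRE, TGACATCA, 112 to 119 bp upstream, which differs from it by G5A, counted from 1 at the 5′ end of the CRE.
Dusp1, minus strand, chr17:26508423-26508722: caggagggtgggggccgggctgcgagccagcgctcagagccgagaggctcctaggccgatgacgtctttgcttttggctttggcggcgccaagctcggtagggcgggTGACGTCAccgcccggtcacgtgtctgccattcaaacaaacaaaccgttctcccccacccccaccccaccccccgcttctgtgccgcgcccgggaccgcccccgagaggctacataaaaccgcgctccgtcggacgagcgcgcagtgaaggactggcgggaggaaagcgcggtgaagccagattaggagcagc
Btg2, minus strand, chr1:134079106-134079405: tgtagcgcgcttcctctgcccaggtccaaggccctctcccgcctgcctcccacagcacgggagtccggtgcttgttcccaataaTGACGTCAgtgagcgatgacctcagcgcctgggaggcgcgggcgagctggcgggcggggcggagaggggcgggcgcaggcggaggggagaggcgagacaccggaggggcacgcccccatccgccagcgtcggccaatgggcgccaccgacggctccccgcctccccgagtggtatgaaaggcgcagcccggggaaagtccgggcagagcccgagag
Klf6, plus strand, chr13:5861239-5861538: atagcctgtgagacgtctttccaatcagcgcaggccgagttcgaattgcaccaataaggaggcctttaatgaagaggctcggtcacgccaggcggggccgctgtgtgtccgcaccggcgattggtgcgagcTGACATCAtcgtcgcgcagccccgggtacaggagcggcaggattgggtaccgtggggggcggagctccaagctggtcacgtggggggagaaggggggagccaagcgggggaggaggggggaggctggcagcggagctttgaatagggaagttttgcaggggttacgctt

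RefSeq promoters were matched for 7 of the 10 genes, Btg2, Gadd45a, Zfp36, Gadd45b, Klf6, Dusp1 and Ier3. A CRE was present in 2 of them, beside 1.79% of all 32851 promoters (95% Wilson interval 1.65 to 1.94%). None of the 7 held an AP-1 site, which 5.20% of all promoters held (4.97 to 5.45%). Among the 7, the CArG box, the site of serum response factor, was found in the Zfp36 promoter alone, beside 1.63% of all promoters (1.50 to 1.77%). The promoters of Egr1, Ier2 and Myc were not searched. All motifs were searched on both strands, and a match describes the letters and not binding.

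Sites in peaks away from the promoters are shown next, on the plus strand of mm10 with 30 bases on each side and with AP-1 or CRE sites in capitals. The first pair are the CREs under a pair of neighbouring peaks upstream of Ier3, and the third is the CRE upstream of Dusp1.
Ier3, 44.8 kb upstream, chr17:35776927-35776994: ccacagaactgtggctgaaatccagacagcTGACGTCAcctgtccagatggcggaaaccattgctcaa
Ier3, 44.4 kb upstream, chr17:35777335-35777402: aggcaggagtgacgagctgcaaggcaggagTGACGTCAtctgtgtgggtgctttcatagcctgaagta
Dusp1, 29.7 kb upstream, chr17:26538248-26538315: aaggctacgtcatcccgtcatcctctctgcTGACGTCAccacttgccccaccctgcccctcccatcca
The others hold AP-1 sites, chosen as the site nearest the summit of the highest-fold peak with a site at the gene or of a peak with 3 or more sites. Egr1 and Ier2, which had no matched RefSeq promoter, were left out although their EpiSC peaks hold AP-1 sites. At Btg2 the highest-fold peak with a site is the promoter peak, so none of its distal sites is shown.
Dusp1, 27.4 kb upstream, chr17:26535923-26535989: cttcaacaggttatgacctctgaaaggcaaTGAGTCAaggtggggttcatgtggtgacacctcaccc
Klf6, 16.4 kb upstream, chr13:5845231-5845310: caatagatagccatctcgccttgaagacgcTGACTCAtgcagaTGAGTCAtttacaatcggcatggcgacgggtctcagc
Klf6, 25.4 kb downstream, chr13:5887002-5887068: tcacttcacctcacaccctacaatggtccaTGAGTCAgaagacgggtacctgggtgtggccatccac
Zfp36, 40.4 kb upstream, chr7:28419590-28419751: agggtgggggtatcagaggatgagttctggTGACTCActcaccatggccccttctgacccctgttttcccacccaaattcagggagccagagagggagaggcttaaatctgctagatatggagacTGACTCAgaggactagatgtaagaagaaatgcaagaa
Zfp36, 2.13 kb upstream, chr7:28381159-28381225: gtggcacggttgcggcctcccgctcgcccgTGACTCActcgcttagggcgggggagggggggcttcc
Gadd45a, 21.0 kb downstream, chr6:67016379-67016445: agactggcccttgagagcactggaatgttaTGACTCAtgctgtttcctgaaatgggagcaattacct
Gadd45b, 25.5 kb downstream, chr10:80955451-80955616: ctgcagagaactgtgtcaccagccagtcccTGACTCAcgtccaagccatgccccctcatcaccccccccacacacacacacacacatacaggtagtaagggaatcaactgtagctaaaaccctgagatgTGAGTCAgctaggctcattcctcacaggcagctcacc
The 2 AP-1 sites 16.4 kb upstream of Klf6 lay within 10 bp of the summit of the widest peak of the 10 genes, and the first of the 2 sites 40.4 kb upstream of Zfp36 lay directly at the summit.

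In EpiSCs c-Jun was bound within 50 kb of the TSS at all 10 genes, where 50.7% of protein-coding genes had one. All 10 also had a peak within 10 kb, where 21.8% of protein-coding genes had one. In kEpiSCs 8 of the 10 genes had a peak within 50 kb (27.0% of protein-coding genes) and 4, Ier2, Ier3, Klf6 and Dusp1, within 10 kb (8.27% of protein-coding genes). Myc and Gadd45a had none in kEpiSCs, and their nearest peaks lay 71782 bp and 76377 bp away. These shares were above the background in both lines. The genes were chosen with earlier results of these data known, so the excess partly may reflect that choice and was not tested. The kEpiSC list is shorter, and whether the absence of a peak there is a difference in binding or in the depth of the list cannot be told apart.

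**Figure D1:**
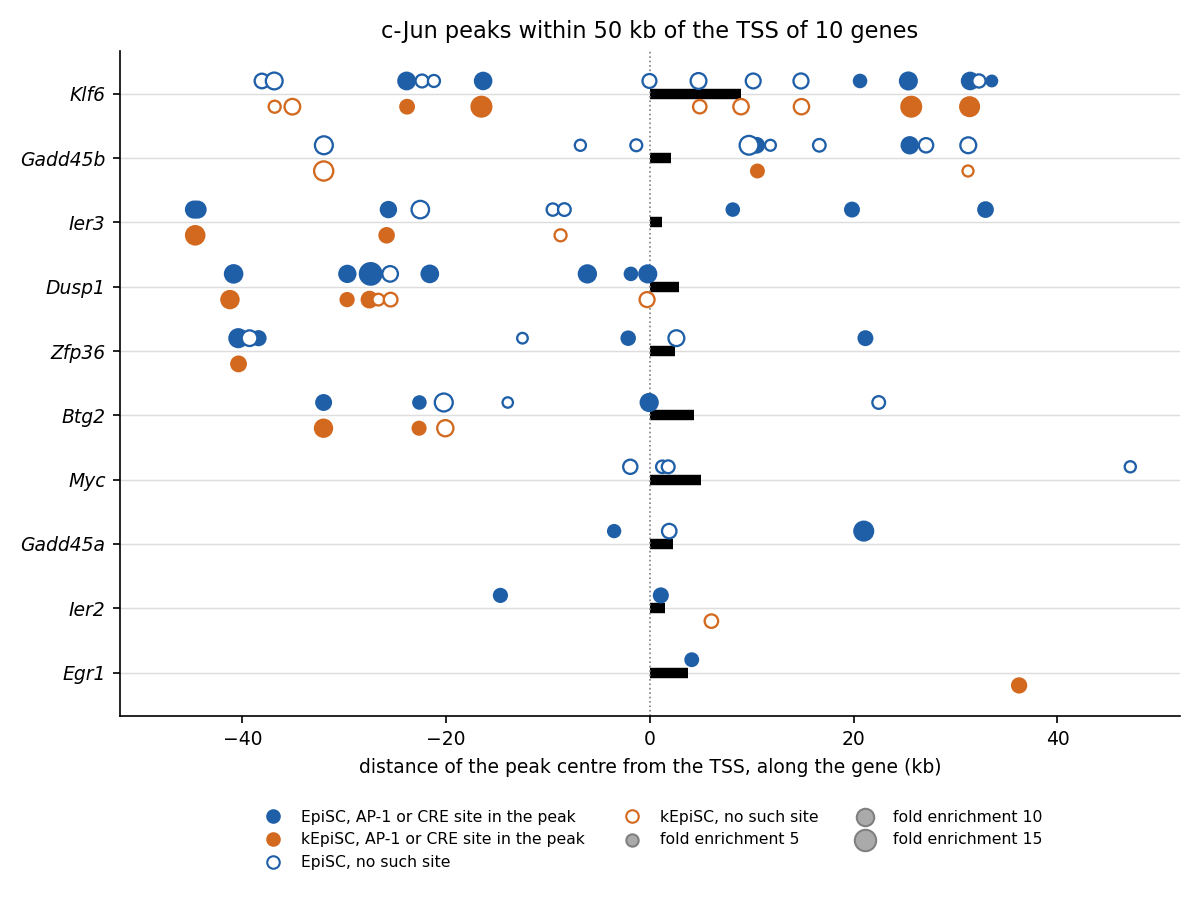
Map of the c-Jun peaks of 10 genes by distance of the peak centre from the TSS in kb (x axis, upstream to the left), with EpiSC peaks above and kEpiSC peaks below each gene line, point area by fold enrichment, filled points for peaks with an AP-1 or CRE site and black bars for the gene bodies. Klf6 is flanked by 15 EpiSC peaks on both sides, the 8 EpiSC peaks of Dusp1 are all upstream, and Myc and Gadd45a have no kEpiSC peak.

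The number of peaks differed widely among the genes. Klf6 had 15 peaks in EpiSCs, Gadd45b 10, Ier3 9, Dusp1 8, Zfp36 7 and Btg2 6. Myc had 4, Gadd45a 3, Ier2 2 and Egr1 1, and the median over all protein-coding genes was 1. Only 0.0714% of protein-coding genes had 15 or more peaks, and 0.514% had 10 or more, whereas 50.7% had at least 1. The count of Egr1 was thus a common one. In kEpiSCs Klf6 had 9 peaks, Dusp1 6, and Ier3, Btg2 and Gadd45b 3 each, with 1 each at Egr1, Ier2 and Zfp36. At least 9 peaks were present at 0.0714% of protein-coding genes in that line, at least 6 at 0.276% and at least 3 at 3.45%. Klf6 and Dusp1 held 15 of the 27 kEpiSC peaks and 23 of the 65 EpiSC peaks.

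**Figure D2:**
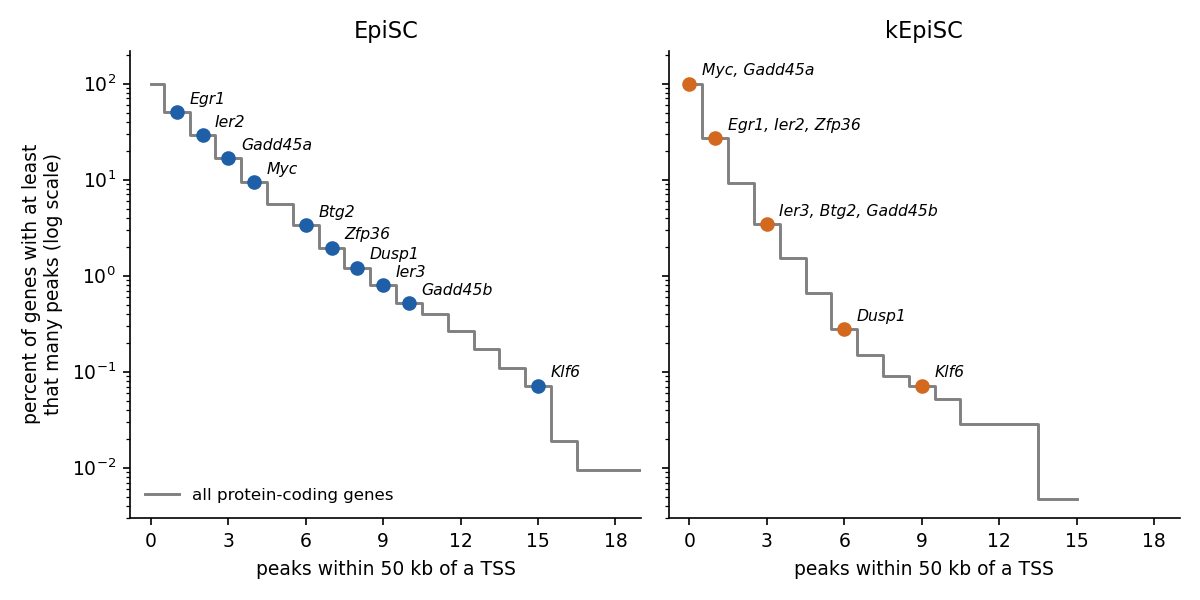
Percent of the 21000 protein-coding genes (grey steps, log axis) with at least a given number of peaks within 50 kb of a TSS (x axis), for EpiSCs (left) and kEpiSCs (right), with the 10 genes as points. Klf6 is farthest to the right in both lines, with 15 and 9 peaks.

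Klf6, a zinc finger transcription factor of the Krüppel-like family, lay at the centre of the densest group. The gene spans chr13:5861489-5870393 and no other protein-coding gene has a TSS in its window, and all 15 EpiSC and 9 kEpiSC peaks were nearest to Klf6. In EpiSCs 7 peaks lay upstream and 8 downstream, with fold enrichments of 3.70 to 9.29 (median 7.28) on 6 to 31 reads. The peak at the promoter, 49 bp upstream of the TSS, was 666 bp wide and had a fold enrichment of 6.35 on 11 reads (95% Poisson interval 5.49 to 19.7). No kEpiSC peak overlapped it. The widest peak lay 16.4 kb upstream between genes (chr13:5844358-5845872, 1515 bp) and had a fold enrichment of 8.72 on 31 reads (21.1 to 44.0) in EpiSCs. It was matched in kEpiSCs by a peak with a fold enrichment of 12.8 on 33 reads (22.7 to 46.3). The EpiSC peak held 5 AP-1 sites, of which the pair shown above was nearest the summit.

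Of the 15 Klf6 peaks in EpiSCs, 7 overlapped a kEpiSC peak. The fold enrichments at 31.4 kb downstream were 8.80 in EpiSCs and 11.6 in kEpiSCs, with 2 AP-1 sites in the peak. At 25.4 kb downstream they were 9.26 and 12.8, with 1 AP-1 site. The values at 36.9 kb upstream, where the peak held no AP-1 site, were 9.29 and 4.76, in the other direction. The peak in intron 2 of Klf6, 4.77 kb downstream of the TSS, had values of 8.21 and 5.93. The same gene thus held peaks whose fold enrichment was higher in either line, but the intervals of the reads overlapped in all 7 pairs. The fold also depends on the local background, which at 4.77 kb downstream was 0.46 reads in EpiSCs and 1.29 in kEpiSCs. kEpiSCs also had 2 peaks that EpiSCs lacked, 35.1 kb upstream with a fold enrichment of 8.04 and 8.94 kb downstream with 7.78, and neither held an AP-1 site.

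Dusp1 encodes the phosphatase that inactivates MAP kinases, among them JNK, the kinase of c-Jun. Its 8 EpiSC peaks and 6 kEpiSC peaks were all upstream of the gene (chr17:26505591-26508472, minus strand). The promoter peak lay 215 bp upstream in EpiSCs (chr17:26508430-26508945), with a fold enrichment of 9.35 on 16 reads (9.15 to 26.0). In kEpiSCs it lay 282 bp upstream, with 7.37 on 15 reads (8.40 to 24.7). No other of the 10 genes had a peak at its own promoter in both lines. The CRE shown above was inside the EpiSC peak, 122 bp from its summit, and outside the narrower kEpiSC peak.

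The highest fold enrichment at any of the 10 genes was that of the peak 27.4 kb upstream of Dusp1, which held the AP-1 site shown above. It was 15.2 on 22 reads (13.8 to 33.3) in EpiSCs and 7.86 on 19 reads (11.4 to 29.7) in kEpiSCs. The intervals of the reads overlapped, and a kEpiSC read counted as 0.7752 in the signal that enters the fold. A second distal peak, 40.9 kb upstream and 1128 bp wide, had the most reads of all, 35 (24.4 to 48.7) in EpiSCs, and 29 (19.4 to 41.6) in kEpiSCs, with fold enrichments of 9.81 and 9.67. The CRE 29.7 kb upstream was under a peak in both lines, with fold enrichments of 8.47 and 5.54. Of the 8 EpiSC peaks 7 held an AP-1 or CRE site, the largest share among the genes with more than 2 peaks. The 3 farthest EpiSC peaks were nearer to the TSS of Ergic1, outside the window on the far side, than to that of Dusp1. Peaks 1.87 kb, 6.14 kb and 21.6 kb upstream, with fold enrichments of 4.94, 9.52 and 8.84, each held AP-1 sites and had no kEpiSC peak.

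**Figure D3:**
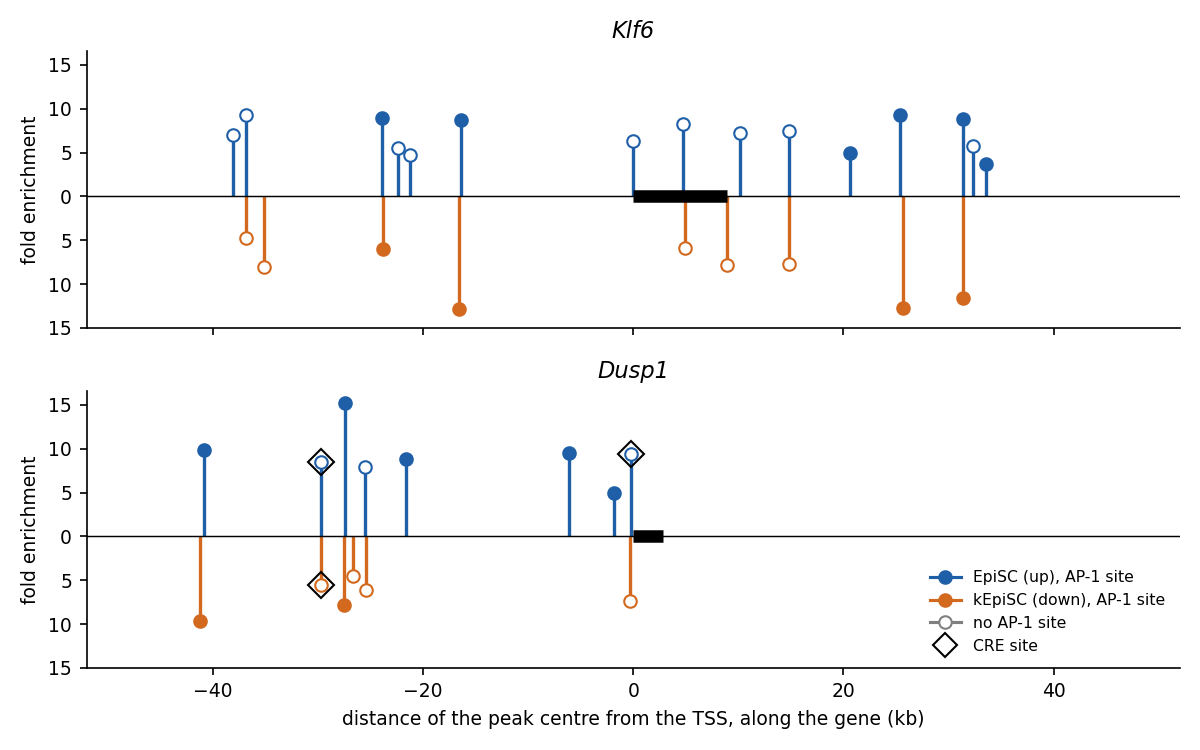
Fold enrichment of each c-Jun peak (y axis, EpiSC upwards and kEpiSC downwards from 0) by distance from the TSS in kb (x axis) at Klf6 (top) and Dusp1 (bottom), with filled points for peaks that hold an AP-1 site, diamonds for peaks with a CRE and black bars for the gene bodies. The highest EpiSC value is 15.2 at Dusp1, 27.4 kb upstream, and the highest kEpiSC value is 12.8 at Klf6, 16.5 kb upstream.

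Egr1, a zinc finger factor used widely as the marker of an immediate early response, had the fewest peaks in EpiSCs. Its EpiSC peak was 4102 bp downstream, just beyond the end of the gene, with a fold enrichment of 5.21 on 9 reads (4.12 to 17.1) and 1 AP-1 site. The kEpiSC peak lay elsewhere, 36.2 kb downstream and nearest to Etf1, with a fold enrichment of 6.47 on 14 reads (7.65 to 23.5) and 2 AP-1 sites. Ier2, a nuclear protein induced with Egr1, had a peak over its only exon, in the 3′ UTR 1068 bp downstream, with 6.25 on 11 reads (5.49 to 19.7), and one 14.7 kb upstream in intron 1 of Nacc1, nearest to Trmt1, with 5.47. Both held an AP-1 site. In kEpiSCs the only peak was 6.03 kb downstream, with 5.98 on 10 reads (4.80 to 18.4) and no AP-1 site. No peak of Egr1 or Ier2 was shared between the lines, and all of these were below the median fold of their list except the Ier2 3′ UTR peak, beside medians of 6.16 in EpiSCs and 7.23 in kEpiSCs.

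Myc, the growth-promoting factor, had 3 EpiSC peaks close to the TSS. They lay 1.93 kb upstream, with a fold enrichment of 6.66, and 1.22 kb and 1.79 kb downstream in intron 1, with 5.15 and 5.40. The last lay 47.1 kb downstream with 4.11 on 5 reads (1.62 to 11.7). Myc was the only one of the 10 genes with neither an AP-1 nor a CRE site in any EpiSC peak. All 4 peaks were nearest to Myc, and none overlapped a kEpiSC peak.

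Ier3, a small protein of stress and survival responses, had 9 EpiSC peaks, 6 of them upstream. The pair with a CRE each, 44.8 kb and 44.4 kb upstream at exon 2 and in intron 2 of the noncoding gene 4833427F10Rik, had the same fold enrichment of 8.21 on 11 reads (5.49 to 19.7). A single kEpiSC peak covered the first CRE and overlapped both EpiSC peaks, with a fold enrichment of 11.0 on 19 reads (11.4 to 29.7). The highest EpiSC peak lay 22.5 kb upstream, with 10.1 on 18 reads (10.7 to 28.4). It held neither motif and was not in the kEpiSC list. Downstream, peaks in coding exon 9 of Flot1, at the Mdc1 promoter and in intron 13 of Mdc1 held AP-1 sites, with fold enrichments of 4.96, 6.12 and 6.84. None of these 3 overlapped a kEpiSC peak.

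Among the genes that act on mRNA decay and proliferation, Btg2, an antiproliferative cofactor of deadenylation, had a promoter peak 75 bp upstream of the TSS in EpiSCs (chr1:134079138-134079323). Its fold enrichment was 9.45 on 22 reads (13.8 to 33.3), and its summit lay 55 bp from the CRE. No kEpiSC peak lay within 10 kb of Btg2, and the nearest was 20.1 kb upstream. The 3 kEpiSC peaks of Btg2 each overlapped an EpiSC peak, and all were nearest to Chit1. At the Chit1 promoter, 32.0 kb upstream of Btg2, the fold enrichments were 7.06 in EpiSCs and 9.61 in kEpiSCs, with an AP-1 site 6 bp from the EpiSC summit. At 20.2 kb upstream, where no AP-1 site was found, they were 10.6 and 8.64.

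Zfp36, the protein that binds AU-rich elements and destabilises mRNA, had 7 EpiSC peaks, 2 of them nearest to it. These lay 2.13 kb upstream, with a fold enrichment of 5.76 and 3 AP-1 sites, and 2.60 kb downstream, with 8.25 and none. The highest lay 40.4 kb upstream in intron 2 of Samd4b, with 10.5 on 16 reads (9.15 to 26.0) and 2 AP-1 sites. This was the only Zfp36 peak found in kEpiSCs, with 6.98 on 12 reads (6.20 to 21.0).

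Gadd45a and Gadd45b, growth arrest and DNA damage proteins that bind the MAP kinase kinase kinase Map3k4, differed in number of peaks. Gadd45a had 3 EpiSC peaks, all nearest to it. One lay 3.52 kb upstream in intron 1 of the noncoding gene E230016M11Rik, with a fold enrichment of 4.76, and one at 1.89 kb in the 3′ UTR in exon 4, with 6.88. The highest lay 21.0 kb downstream in intron 3 of Gng12 (chr6:67016340-67016506), with 11.6 on 16 reads (9.15 to 26.0), and its AP-1 site was 21 bp from the summit. It was not in the kEpiSC list. When EpiSC peaks were split by fold into 10 equal classes, 78.2% of its class, the highest, were in that list. In the class below, 48.7% were. Its value lay in the lower part of the highest class, which reaches 30.8. Gadd45b had 10 EpiSC peaks, 7 of them downstream. The one 9.72 kb downstream had a fold enrichment of 11.6 on 16 reads (9.15 to 26.0) with no AP-1 site and no kEpiSC peak. In coding exon 16 of Tmprss9, 32.0 kb upstream, the values were 10.5 in EpiSCs and 12.1 in kEpiSCs, again without an AP-1 or CRE site. Of the 10 peaks 2 held an AP-1 site, including the peak in intron 2 of Gng7 shown above.

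Taking the 10 genes as a group, 22 of the 65 EpiSC peaks overlapped a kEpiSC peak by at least 1 bp, or 33.8% (95% Wilson interval 23.5 to 46.0%), beside 28.3% of all EpiSC peaks and 30.0% of all EpiSC peaks in the same fold classes. Of the 27 kEpiSC peaks 21 overlapped an EpiSC peak, or 77.8% (59.2 to 89.4%), beside 75.8% of all kEpiSC peaks. Both shares were near the background. Peaks of 1 gene share a locus, so they are not replicates of one another. The shared EpiSC peaks had a median fold enrichment of 8.59 (4.95 to 15.2) and the others 5.73 (3.54 to 11.6). Over all EpiSC peaks sharing was also more frequent at higher fold, with 12.8% in the lowest of the 10 fold classes and 78.2% in the highest. Of the 22 overlapping pairs 9 had the higher fold enrichment in kEpiSCs, or 40.9%, beside 43.0% of the 4595 pairs of all peaks. The 6 kEpiSC peaks without an EpiSC partner were at Klf6 (2), Egr1, Ier2, Ier3 and Dusp1, and their fold enrichments ran from 4.51 to 8.04.

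**Figure D4:**
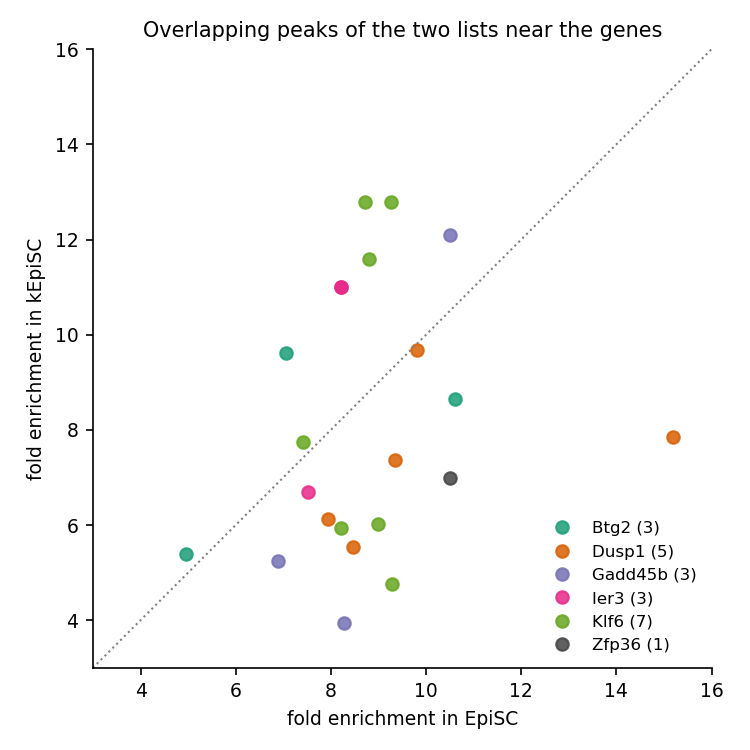
Fold enrichment in EpiSCs (x axis) and kEpiSCs (y axis) of the 22 pairs of overlapping peaks at 6 of the genes, with the number of pairs in brackets and the line of equal values dotted. All 5 Dusp1 pairs lie below the line, Klf6 pairs lie on both sides, and the 2 Ier3 pairs with a kEpiSC value of 11.0 coincide.

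The fold enrichment of the EpiSC peaks had a median of 6.88 (3.54 to 15.2), beside 6.16 for all EpiSC peaks, which lay inside the 95% interval of the median (6.12 to 8.05). Of the 65, 39 were above the value of the list, but the 21 peaks within 10 kb had a median of 5.76, below it. In kEpiSCs the median was 6.98 (3.95 to 12.8), beside 7.23. The EpiSC peaks were wider than the list, with a median of 241 bp beside 190 bp, and 44 of 65 were above the median of the list. In kEpiSCs the medians were 183 bp and 179 bp, and 16 of 27 were above that of the list. Of the 65 peaks 47 were nearest to the assigned gene, and in kEpiSCs 17 of 27. The others were nearest to Chit1, Fmod, Ergic1, Timm13, Lmnb2, Trmt1, Flot1, Mdc1, Nrm, Samd4b, Med29 and Rps16, and in kEpiSCs to Chit1, Ergic1, Etf1, Timm13 and Samd4b. Between genes lay 40 of the EpiSC peaks, 15 were in introns and 5 at promoters, 2 of these the promoters of Chit1 and Mdc1. Locations were not counted over all peaks, so no background share stands beside them.

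AP-1 sites were not more frequent at these genes than elsewhere. In the central 200 bp, 20 of the 65 EpiSC peaks held one, or 30.8% (20.9 to 42.8%), beside 45.9% of all EpiSC peaks and 4.02% of windows 2 kb away from the peaks. In kEpiSCs 10 of 27 did, or 37.0% (21.5 to 55.8%), beside 58.5% of all kEpiSC peaks. In EpiSCs the share and its gap to the list depended on the window. Within 100 bp of the summit 29 peaks held a site, or 44.6% (33.2 to 56.7%), beside 49.2%, and over the whole peak 28, or 43.1% (31.8 to 55.2%), beside 51.0%. Those 28 peaks held 40 sites, 1.95 per kb of peak beside 2.77 per kb for all EpiSC peaks. Where a peak held a site, it lay at a median of 20.5 bp from the summit, beside 20.0 bp for all. In kEpiSCs the share was 44.4% (27.6 to 62.7%) both within 100 bp of the summit and over the whole peak, beside 62.2% and 63.4%. A gap to the list thus remained in these windows. The interval included the value of the list within 100 bp of the summit and ended just below it over the whole peak. By gene, Ier2 had a site in both of its EpiSC peaks, Dusp1 in 5 of 8, Zfp36 in 4 of 7, Klf6 in 6 of 15 and Gadd45b in 2 of 10.

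**Figure D5:**
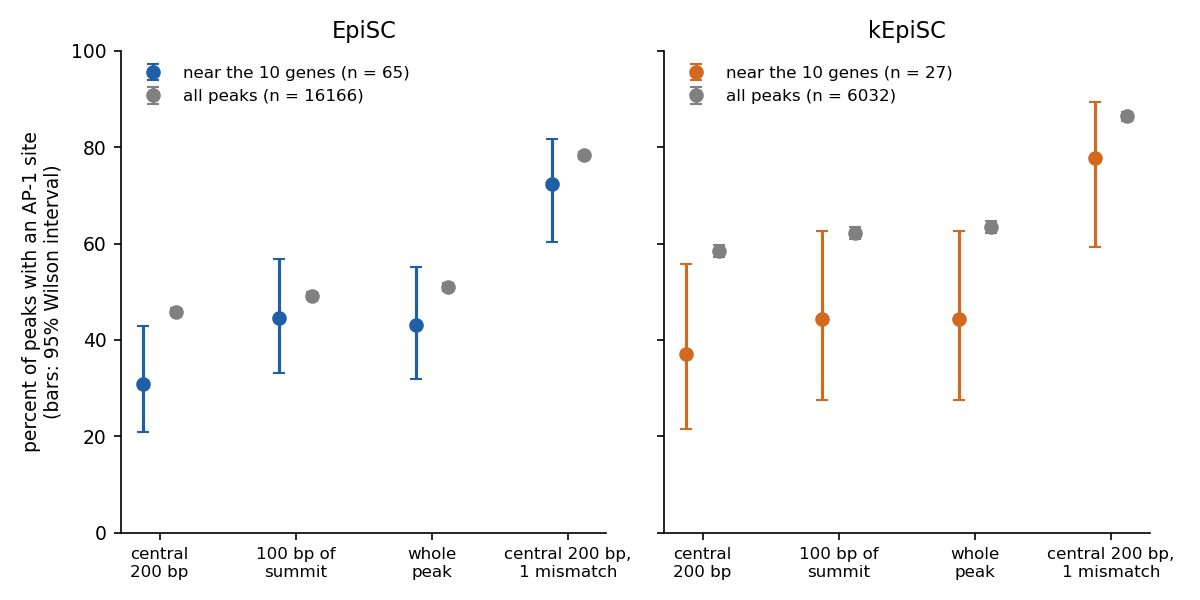
Percent of peaks with an AP-1 site (y axis) in 4 search windows (x axis) for the peaks of the 10 genes (coloured) and all peaks of the list (grey), EpiSCs left and kEpiSCs right, with 95% Wilson intervals. In EpiSCs the values are 30.8% and 45.9% in the central 200 bp and 44.6% and 49.2% around the summit.

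Over all peaks of each list, the share with an AP-1 site in the central 200 bp depended on the distance to a TSS. For the peaks of the 10 genes the intervals of the distance classes overlapped in each line. Within 1 kb of any protein-coding TSS 1 of their 6 EpiSC peaks held a site, or 16.7% (3.01 to 56.4%), beside 16.4% of all EpiSC peaks at that distance. From 1 to 10 kb it was 34.8% (18.8 to 55.1%) of 23 peaks beside 46.8%. Over 10 kb it was 30.6% (18.0 to 46.9%) of 36 peaks beside 50.7%. In EpiSCs the upper bound of the interval was below the list only over 10 kb, and the interval takes neighbouring peaks as independent. The distance classes were not counted in the other windows. There the gap between all 65 EpiSC peaks and the list was smaller, as given above, so the shortfall over 10 kb may depend on the window. In kEpiSCs the shares were 1 of 2 peaks within 1 kb beside 26.0%, and 1 of 6 from 1 to 10 kb (16.7%, 3.01 to 56.4%) beside 58.8%. Over 10 kb the share was 42.1% (23.1 to 63.7%) of 19 beside 62.3%. The upper bound was thus below the list from 1 to 10 kb, on 6 peaks, and above it over 10 kb. In this window EpiSC peaks also found in kEpiSCs held a site in 31.8% (16.4 to 52.7%) and those in EpiSCs alone in 30.2% (18.6 to 45.1%). Over all EpiSC peaks the shares were 59.0% and 40.7%. The split was made in this window only, and the contrast with the list may depend on it. Peaks of both kinds held sites outside it. Examples are the shared peaks 16.4 kb upstream of Klf6 and 40.9 kb upstream of Dusp1, and the unshared peak 2.13 kb upstream of Zfp36.

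Over the whole peak, a CRE was present in 5 of the 65 EpiSC peaks, or 7.69% (3.33 to 16.8%), beside 2.52% of all EpiSC peaks. They were the pair at Ier3, a promoter peak and a distal peak at Dusp1 and the promoter peak of Btg2. In kEpiSCs 2 of 27 held one, or 7.41% (2.06 to 23.4%), beside 2.79%, and these covered a CRE that was also under an EpiSC peak. In the central 200 bp the counts were 4 of 65 (6.15%, beside 2.13%) and 1 of 27 (3.70%, beside 2.42%), and the intervals are wide. A CArG box was present over the whole peak in 2 EpiSC peaks, at Btg2 and Gadd45a, or 3.08% (0.848 to 10.5%) beside 1.06%, and in 0 of 27 kEpiSC peaks, with a Wilson interval of up to 12.5%.

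Related genes were compared by the same counts, in lists that were also chosen with earlier results of these data known. Of 37 other immediate early genes 32 (86.5%) had an EpiSC peak within 50 kb and 24 (64.9%) within 10 kb, and of 19 other stress response genes 18 (94.7%) and 16 (84.2%), where 50.7% and 21.8% of protein-coding genes had one. The corresponding counts in kEpiSCs were 26 and 16 (70.3% and 43.2%), and 15 and 8 (78.9% and 42.1%), beside 27.0% and 8.27%. The highest-scoring peaks in EpiSCs were near Hbegf (fold enrichment 14.0), Csrnp1 (17.3), Ier5 (16.5) and Ccn1 (11.9), and near Mdm2 (28.2), Atf3 (11.2), Bbc3 (12.7) and Ddit4 (13.5). Of 18 upstream regulators of these responses 15 (83.3%) had an EpiSC peak within 50 kb and 9 (50.0%) within 10 kb, with 8 (44.4%) and 3 (16.7%) in kEpiSCs, and the highest-scoring were near Elk3 (16.4), Mapk14 (11.4), Mapkapk2 (8.99) and Rps6ka1 (7.19). Of 10 partners and relatives of Myc 9 and 4 had one in EpiSCs and 6 and 3 in kEpiSCs, with the highest-scoring near Mycl (13.2), Mxi1 (10.6), Max (8.63) and Mnt (9.79). These peaks lay 5.82 kb (Mapk14) to 48.1 kb (Hbegf) from the TSS, and those of Hbegf, Csrnp1, Bbc3, Mapkapk2, Mycl and Mnt were nearest to another gene, Pfdn1, Xirp1, Ccdc9, Dyrk3, Mfsd2a and Sgsm2 in that order. The median number of EpiSC peaks within 50 kb was 6.50 for the 10 genes and 3, 2, 2 and 2 for these 4 lists, beside 1 for all protein-coding genes.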

How the data were processed

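Per the study's methods, the authors aligned reads with Bowtie2 to mm10, retained unique alignments and ran MACS2 with its defaults. Tools in the submitters' processing notes further include bcl2fastq, SAMtools and bedtools, and no versions were stated there. The 2 deposited peak lists, 1 per line, give for each peak a score (the whole part of 10 times the −log10 q), a fold enrichment at the summit (a ratio with 1 added to both sides) and the −log10 of the p-value and q-value, all computed by the authors. From the deposited columns, reads at the summit were solved together with the background, which met the −log10 p within 0.01 for 100.0% of the peaks of both lists. A kEpiSC read counted as 0.7752 in the pileup. The solver was tested on simulated data. The total depth of the libraries is unknown.

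Curated RefSeq transcripts (GRCm38.p6) gave the TSSs and gene parts, and a promoter location was 1000 bp upstream to 100 bp downstream. Peaks were assigned to a gene when their centre lay within 50 kb of its TSS. AP-1 and CRE matches on either strand were counted in the central 200 bp or over the whole peak, as stated. Lists overlapped when peaks shared at least 1 bp. Shares have 95% Wilson intervals and reads exact Poisson intervals. No test was made, since each line has 1 list. Counts are set beside the same count over all genes or peaks where that count was made, which it was not for peak locations. All 10 genes are named, and the 4 genes with the highest −log10 q peak of each other list. The members and lists were chosen with earlier results of these data known. Alternatives covered the distance, the gene assignment, the higher-scoring peaks alone, the overlap, the motif window and, chosen after seeing the data, leaving out Klf6. Python 3.11.15, NumPy 2.4.6, pandas 2.3.3, SciPy 1.17.1, pysam 0.24.0 and matplotlib 3.10.9 were used.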

Additional observations from a re-analysis of the deposited data

How the results depend on the processing

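No paired analysis was possible because the deposited lists, 1 for each line, hold no values of single replicates, which also means that leaving out a replicate could not be tried. Of 41 alternative values 22 stayed within 1.5 times the count reported or within its interval. Some of the 22 were fixed in advance, as stated below. All 10 genes had an EpiSC peak within 10 kb and with nearest TSSs only. Within 5 kb 9 did, and 8 among the higher-scoring peaks of the list. The count was also 10 within 100 kb and with predicted TSSs added, but this was fixed in advance, because these settings can only add peaks. In kEpiSCs 4 genes had one within 10 kb, 2 within 5 kb and 5 with nearest TSSs only or among the higher-scoring peaks. The number of EpiSC peaks was 21 within 10 kb, 15 within 5 kb and 41 among the higher-scoring peaks. In kEpiSCs it was 5, 2 and 14, 41 within 100 kb and 17 with nearest TSSs only. The share of EpiSC peaks overlapping a kEpiSC peak was 20.0% when the overlap had to reach 50% of both peaks, beside 18.9% of all EpiSC peaks. The share with an AP-1 site was 44.6% within 100 bp of the summit, 43.1% over the whole peak and 72.3% with 1 mismatch allowed, where all EpiSC peaks had 78.3%. The median fold enrichment in EpiSCs was 5.76 within 10 kb, below the 6.16 of the list, and 8.25 among the higher-scoring peaks, beside 8.05 for that part of the list. In kEpiSCs it was 9.12 among the higher-scoring peaks, above the 8.89 of that part of the list, whereas the median reported, 6.98, was below the 7.23 of the whole list. Leaving out Klf6, an alternative chosen after seeing the data, kept all 8 results within those limits, with an AP-1 share of 32.0% and an overlap of 30.0%. The counts of genes with a peak, 9 in EpiSCs and 7 in kEpiSCs, were fixed in advance by the removal of a gene with peaks. The number of kEpiSC peaks fell from 27 to 18, which lay at the limit of 1.5 times. Few reads per peak and the absence of replicate values limit all comparisons between the lines.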
